A study of Danio rerio with 2 samples.

Results

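AP-1 is a family of paired transcription factors whose transcripts were compared here between lri25 mutant and wild-type zebrafish larvae. The genes were taken by symbol from a deposited table of transcript levels, ignoring case, with the symbols fos, fosab, fosb, fosl1a, fosl2, jun, junba, junbb, jund and atf3. Of the 10 symbols, 9 were found, on 10 of the 33733 gene rows. The symbol fosab is not printed in the table. RefSeq gives fos as an older name of fosab, and fos stands on 2 rows that share 1 locus, so fosab is covered by those rows and is not counted apart.

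The mutant library came from larvae homozygous for lri25, and the control library from their wild-type clutchmates, called the sibling pool. Each was 1 pool of 20 whole larvae of the AB/TL strain, collected at 5 dpf (days post fertilisation). The series asked which transcripts differ between the genotypes. Its labels leave the gene behind lri25 unnamed, so no targeted transcript was used to check the genotypes. With 1 library per genotype there is no spread between samples, and no test was run on any difference given below.

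An AP-1 dimer joins a Jun protein to a Fos protein, to an ATF protein or to another Jun, through a leucine zipper, and binds short DNA sites beside many genes. Fos proteins need a Jun partner, whereas Jun proteins can also pair with each other. Most of these genes are immediate early genes, which are transcribed within minutes of a stimulus without new protein synthesis. Growth factor, stress and wound signals reach them through MAP kinases, and in zebrafish AP-1 genes are known to be switched on at wounds and in regenerating fins.

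Levels are in FPKM, fragments scaled to transcript length and library size, so different genes can be set side by side. Differences are log2((mutant FPKM + 1)/(wild-type FPKM + 1)), and a gene counts as at least 2-fold higher when this reaches 1. Folds are plain ratios of the FPKM values. A gene was called measured when either library had 1 FPKM or more, which left 20256 genes. All 10 AP-1 and atf3 rows passed, with at least 5.74 FPKM in each library. The table holds no fragment counts, so the depth behind each value is unknown and no counting interval is attached.

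The AP-1 genes junba, junbb, fosl1a, fosl2 and jun were at least 2-fold higher in the mutant library, while fos, atf3, jund and fosb were not. These 5 of 10 rows compare with 6.08% of all measured genes at least 2-fold higher. None of the 10 rows was at least 2-fold lower, against 7.12% of all measured genes. All 10 differences lay above 0, as did 49% over all genes, and their median was 1.04, against -0.01 over all genes. The differences ran from 0.01 for fosb to 1.78 for junba.

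**Figure D1:**
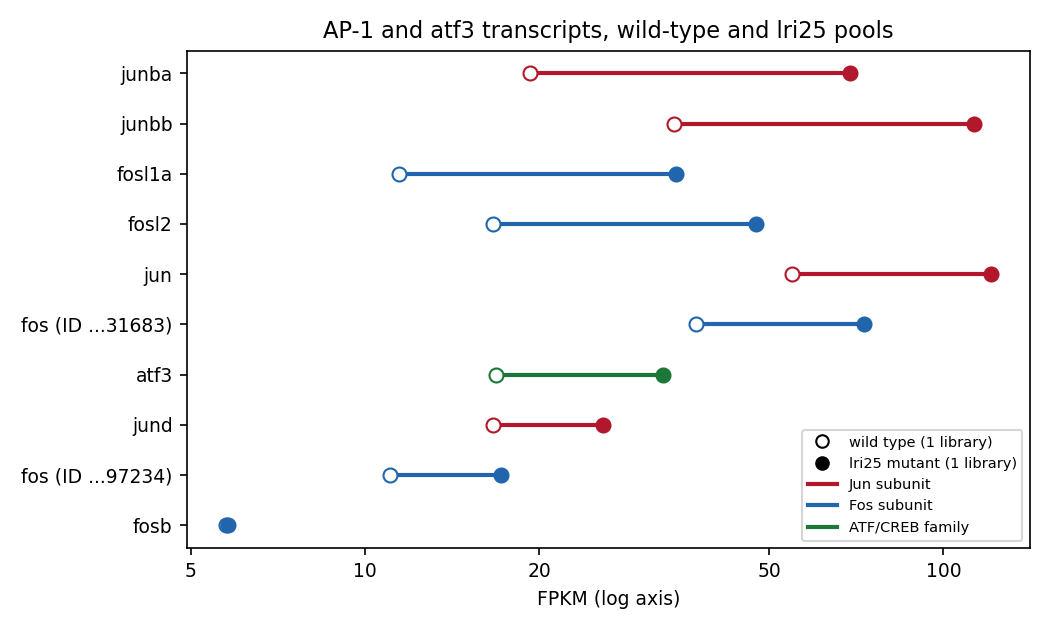
Level of each AP-1 and atf3 row in FPKM (log axis), with an open circle for the wild-type library and a filled circle for the mutant library, coloured by subunit class and ordered by difference. The lines are longest for junba and junbb, and the fosb circles, at 5.74 and 5.80 FPKM, lie on each other.

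Among the Jun subunits, which can pair with every other AP-1 class, junba showed the highest difference. It lies on chromosome 1, 52226931 to 52228487 (ENSDARG00000074378, build Zv9), and was at 19.3 FPKM in the sibling pool and 68.8 FPKM in the lri25 pool. This is a 3.57-fold higher level, a difference of 1.78. Its sister gene junbb (ENSDARG00000088371, chromosome 3, 8434976 to 8436380) was at 34.3 FPKM in the sibling pool and 113 FPKM in the lri25 pool, 3.29-fold higher. The pair descends from 1 ancestral junb gene duplicated in the fish lineage, and in both libraries junbb was the more abundant copy.

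The jun gene encodes c-Jun, the founding AP-1 subunit and a substrate of the JNK kinases (ENSDARG00000043531, chromosome 20, 15558518 to 15560467). It stood at 54.7 FPKM in the sibling pool and 121 FPKM in the lri25 pool, a 2.21-fold higher level and a difference of 1.13. In each library it was the most abundant of the 10 rows, and its rank among measured genes moved from 1600 in the wild type to 739 in the mutant. The remaining Jun gene, jund (ENSDARG00000067850, chromosome 2, 56338261 to 56344399), is known in mammals for broad and steady expression. It was at 16.6 FPKM in the sibling pool and 25.8 FPKM in the lri25 pool, a difference of 0.60 that is short of 2-fold.

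Among the Fos subunits the higher differences belonged to the Fos-related antigens, which lack the strong activation domain of c-Fos. The gene fosl1a encodes Fra-1 (ENSDARG00000015355, chromosome 14, 31611183 to 31617315) and was at 11.5 FPKM in the sibling pool and 34.5 FPKM in the lri25 pool, 3.01-fold higher. Fra-2, encoded by fosl2 (ENSDARG00000040623, chromosome 17, 41427846 to 41443739), was at 16.6 FPKM in the sibling pool and 47.3 FPKM in the lri25 pool, 2.84-fold higher. The differences of these genes, 1.51 and 1.45, lay below those of junba and junbb and above that of jun.

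The fos gene encodes c-Fos, the classic marker of recent cell stimulation, and its rows share the locus on chromosome 20, 46803308 to 46805437. The row ENSDARG00000031683 was at 37.4 FPKM in the sibling pool and 72.7 FPKM in the lri25 pool, a difference of 0.94. The row ENSDARG00000097234 was at 11.1 FPKM in the sibling pool and 17.2 FPKM in the lri25 pool, a difference of 0.59. How fragments were divided between these rows is uncertain. Their sum avoids that question only if both rows were scaled to the same transcript length, which the deposited values do not show. The same limit holds for the Fos totals below, which include both rows. Summed, fos was at 48.4 FPKM in the sibling pool and 89.9 FPKM in the lri25 pool, 1.86-fold higher and a difference of 0.88. Neither row nor their sum reached 2-fold.

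The fosb gene, known in mammals for its response to neuronal activity, was level (ENSDARG00000055751, chromosome 18, 35109606 to 35119433). It stood at 5.74 FPKM in the sibling pool and 5.80 FPKM in the lri25 pool, a ratio of 1.01. It was the least abundant of the 10 rows in both libraries.

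The gene atf3 encodes a stress-induced ATF/CREB family factor that pairs with Jun proteins (ENSDARG00000007823, chromosome 20, 37819241 to 37825345). It was at 16.9 FPKM in the sibling pool and 32.7 FPKM in the lri25 pool, 1.94-fold higher. Its difference of 0.91 lies just below the 2-fold line, with fos ENSDARG00000031683 at 0.94, and jun at 1.13 is the nearest row above it. At a 1.5-fold threshold 9 of the 10 rows counted as higher, against 13.8% of all measured genes. At a 3-fold threshold 2 of the 10 did, junba and junbb, against 1.95% of all measured genes. These thresholds apply on the log2(FPKM + 1) scale, where fosl1a, at a plain ratio of 3.015, fell just short of 3-fold.

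Fold differences vary with abundance, so each row was also set beside genes of similar level in their higher library. The class thus depends in part on the difference itself. The rows junba, fosl1a, fosl2, atf3 and jund reached 20 FPKM only in the mutant library, and junbb and jun reached 100 FPKM only there. Of the 3710 genes that reached 20 to 100 FPKM in their higher library, 4.53% were at least 2-fold higher, and 1.29% were as high as junba. The shares as high as fosl1a and fosl2 in that class were 1.81% and 1.99%. For atf3 the share was 5.58%, for fos ENSDARG00000031683 it was 5.26% and for jund it was 11.3%. These rows lay nearer the middle of their class than the 3 before them.

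Of the 1009 genes at 100 FPKM or more, 4.46% were at least 2-fold higher, 2.08% were as high as junbb and 3.67% as high as jun. Between 5 and 20 FPKM, where 4.96% of 8039 genes were at least 2-fold higher, 12.4% were as high as fos ENSDARG00000097234. For fosb that share was 47.6%, close to the middle of the class. These percentages describe positions within the pair of libraries and are not p-values.

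**Figure D2:**
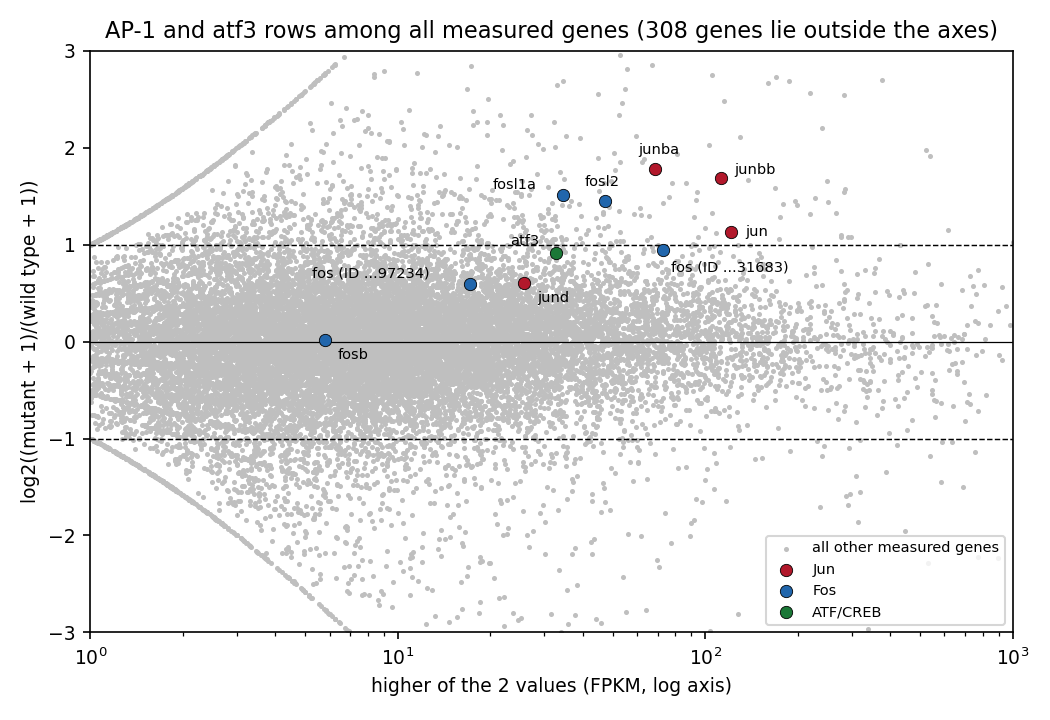
Difference of each measured gene on the log2(FPKM + 1) scale against the higher of its wild-type and mutant values in FPKM (log axis), with 308 genes outside the axes, dashed lines at 2-fold and the AP-1 and atf3 rows coloured. The points of junba, junbb, fosl1a, fosl2 and jun lie above the upper dashed line, and atf3 and fos ENSDARG00000031683 just below it. Further down are jund at 0.60, fos ENSDARG00000097234 at 0.59 and fosb at 0.01.

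In the authors' deposited table each gene also has a p-value and a q-value, which set 1 library against the other and carry no replicate information. In all, 68 genes of the authors' deposited table were marked significant, and 0 of the 10 AP-1 and atf3 rows were among them. The lowest q-value of the 10 rows in the authors' deposited table was 0.156, for junba. Unadjusted p-values under 0.05 in the authors' deposited table were held by 5 of the 10 rows, against 4.37% of the 14613 genes the authors tested. The rows with those p-values were the ones at least 2-fold higher. Both readings come from the same pair of libraries, so the overlap is no separate support.

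Subunit totals show how the mix of AP-1 transcripts differed. The Jun subunits summed to 125 FPKM in the sibling pool and 328 FPKM in the lri25 pool, a 2.63-fold higher total. The Fos subunits summed to 82.3 FPKM in the sibling pool and 178 FPKM in the lri25 pool, a 2.16-fold higher total. Jun transcripts were thus the more abundant class in both libraries, with a Jun to Fos ratio of 1.52 in the sibling pool and 1.85 in the lri25 pool. Scaling of the libraries cannot change this ratio, since it is taken within each library, and protein amounts were not measured.

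Within the Jun class, junba and junbb together held 42.9% of the FPKM in the sibling pool and 55.3% in the lri25 pool. The share of jun was 43.8% in the sibling pool and 36.9% in the lri25 pool, although its own level was higher in the mutant. The share of jund was 13.3% in the sibling pool and 7.86% in the lri25 pool. The largest share of the Jun class thus belonged to jun in the wild type and, counted together, to the junb pair in the mutant.

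Within the Fos class, fos held 58.9% of the FPKM in the sibling pool and 50.6% in the lri25 pool. The Fos-related antigens fosl1a and fosl2 together held 34.2% in the sibling pool and 46.1% in the lri25 pool. The share of fosb was 6.98% in the sibling pool and 3.26% in the lri25 pool. So fos remained the main Fos transcript in both pools, while the fosl1a and fosl2 share came closer to it in the mutant.

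**Figure D3:**
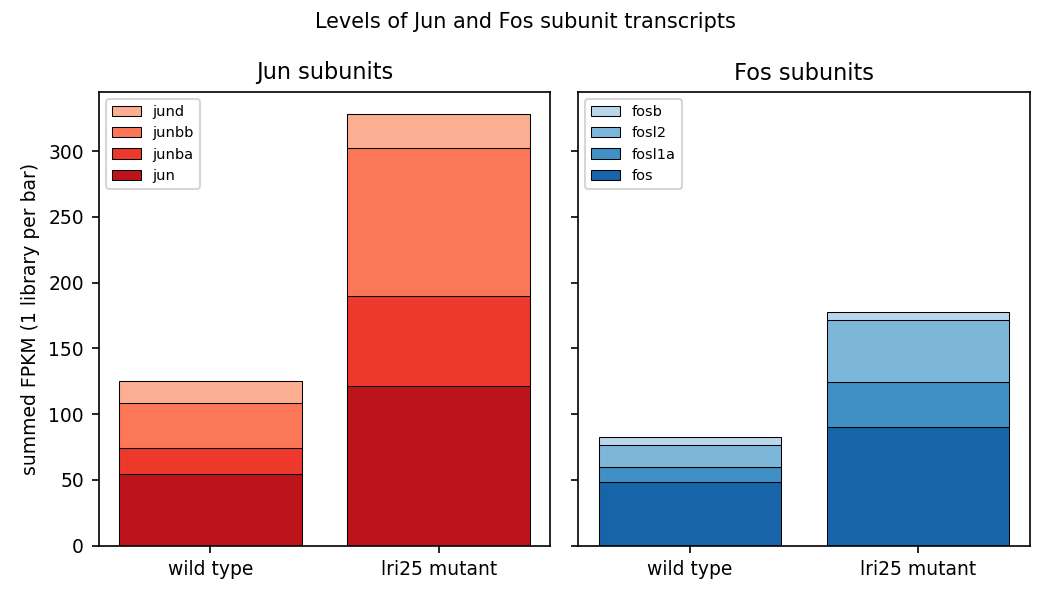
Summed FPKM of the Jun subunits (left) and the Fos subunits (right), 1 bar per library, split by gene with the fos rows summed. The Jun bar stands at 125 FPKM in the sibling pool and 328 FPKM in the lri25 pool, with the largest gain in FPKM in the junbb block, while the Fos bars stand at 82.3 and 178 FPKM.

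The Fos and Jun genes have further copies in the zebrafish genome. Copies of fos and of jdp2, which encodes a Jun-binding repressor of AP-1, lie close together on chromosomes 17 and 20. On chromosome 20, near fos, the jdp2 row (ENSDARG00000020133, 46823547 to 46897553, a locus shared with batf) was at 8.14 FPKM in the sibling pool and 23.0 FPKM in the lri25 pool, 2.82-fold higher. The batf row at that locus was listed at 0 in both libraries. On chromosome 17 the row named FOS (2 of 3), which the table of gene symbols pairs with fosaa, was at 4.18 FPKM in the sibling pool and 3.95 FPKM in the lri25 pool. Its neighbour JDP2 (ENSDARG00000040137) was at 2.30 FPKM in the sibling pool and 2.42 FPKM in the lri25 pool. The chromosome 20 copies were thus higher in the mutant, jdp2 past 2-fold and fos short of it, and the chromosome 17 copies were near their wild-type levels.

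A further fos-like row on chromosome 20, FOS (3 of 3), was at 2.15 FPKM in the sibling pool and 3.61 FPKM in the lri25 pool. The second Fra-1 gene, fosl1b, was listed at 0 in the sibling pool and at 3.08 FPKM in the lri25 pool on 1 row (ENSDARG00000079373), and at 0 in both on another. A fold is not given for it, because an exact 0 can be a failed estimate. The Fra-2 copy fosl2l, printed in the table as si:ch211-59d15.4, was at 1.60 FPKM in the sibling pool and 1.23 FPKM in the lri25 pool, far below fosl2. The gene batf3, which lies beside atf3, was listed at 0 in the sibling pool and at 0.640 FPKM in the lri25 pool.

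The wider family of leucine zipper factors, which includes ATF, CREB, Maf, Nrf, Bach and C/EBP genes, was also counted. Of 40 measured rows, 3 were at least 2-fold higher and 0 lower, a higher share of 7.50% that is near the 6.08% of all measured genes. The median difference was -0.0041. The higher rows were fosl1b, jdp2 and cebpb, of which fosl1b, listed at 0 in the sibling pool, passed the floor only through the lri25 pool. C/EBP beta (cebpb), a factor of the acute phase and inflammatory response, was at 82.8 FPKM in the sibling pool and 174 FPKM in the lri25 pool, 2.10-fold higher. The ATF4 genes, the central factors of the integrated stress response and activators of atf3 in mammals, were level. The table's atf4b1 was at 172 FPKM in the sibling pool and 168 FPKM in the lri25 pool, and atf4b2 was at 194 FPKM in the sibling pool and 193 FPKM in the lri25 pool.

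Transcripts of a list of MAP kinase pathway genes lay on both sides of 0. Not every gene of the list, map3k14a among them, is an established input to AP-1. Of 31 measured MAP kinase pathway rows, 0 were at least 2-fold apart, against 6.08% of all measured genes higher and 7.12% lower. The median was 0.03. The JNK genes mapk8a, mapk8b, mapk9 and mapk10 had differences of -0.13, 0.03, 0.65 and -0.39. The farthest below 0 were mapk7 at -0.93 and the p38 gene mapk11 at -0.92, and the farthest above was map3k14a at 0.88, named after their values were seen. As plain ratios these genes stood at 0.438, 0.489 and 2.003, and with a pseudocount of 0.1 the count at least 2-fold lower was 2. Kinase activity, which depends on phosphorylation, was not measured.

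The serum response factor, its Elk partners and CREB cofactors drive fos transcription in mammals, and the median of their 14 measured rows was -0.08. Of these rows, 0 were at least 2-fold apart, against 6.08% of all measured genes higher and 7.12% lower. The nearest was elk3, at a shared locus, at 5.74 FPKM in the sibling pool and 12.5 FPKM in the lri25 pool. Its difference of 0.997 lay just under the line, while its plain ratio was 2.17. It passed with a pseudocount of 0.1 and when the libraries were rescaled to a common median or upper quartile. Among feedback phosphatases, Sprouty and Spred inhibitors and mRNA decay factors, 0 of 18 measured rows were at least 2-fold lower, with a median of 0.35. At least 2-fold higher was 1 row, a share of 5.56% that is near the 6.08% of all measured genes. That row was DUSP10, listed at 0 in the sibling pool and at 1.66 FPKM in the lri25 pool and named after its values were seen. The AU-rich mRNA decay factor zfp36l1a was at 44.8 FPKM in the sibling pool and 89.7 FPKM in the lri25 pool, and the MAP kinase phosphatase dusp1 at 106 FPKM in the sibling pool and 164 FPKM in the lri25 pool.

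Immediate early genes outside AP-1 lay on both sides of 0, with more of them above. Of 47 measured rows, 37 had differences above 0, against 49% of all measured genes, and the median was 0.24. At least 2-fold higher were 6 rows, or 12.8%, against 6.08% of all measured genes. At least 2-fold lower were 2 rows, against 7.12% of all measured genes. The higher ones included the cytokine signalling inhibitors socs3b, at 14.8 FPKM in the sibling pool and 106 FPKM in the lri25 pool, and socs3a, at 36.2 FPKM in the sibling pool and 219 FPKM in the lri25 pool. IER2, a small nuclear protein of the early response, was at 13.0 FPKM in the sibling pool and 36.0 FPKM in the lri25 pool. The growth arrest gene gadd45g was at 26.4 and 76.1 FPKM, the matrix protein gene cyr61 at 16.5 and 35.3 FPKM, and its relative cyr61l1 at 1.51 and 5.73 FPKM in wild type and mutant. The lower ones were klf11a, at 16.8 FPKM in the sibling pool and 6.62 FPKM in the lri25 pool, and the nuclear receptor gene nr4a2a, at 10.7 FPKM in the sibling pool and 4.41 FPKM in the lri25 pool.

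Some standard activity markers, named after their values were seen, were not at least 2-fold higher. The zinc finger factor egr1 was at 25.4 FPKM in the sibling pool and 21.7 FPKM in the lri25 pool, and egr3 at 3.34 FPKM in the sibling pool and 2.18 FPKM in the lri25 pool. The neuronal activity factor npas4a was at 8.07 FPKM in the sibling pool and 8.63 FPKM in the lri25 pool, and nr4a1 at 29.3 FPKM in the sibling pool and 35.2 FPKM in the lri25 pool. Like fosb, these genes lay short of 2-fold in either direction, and whether they differ from junba in response was not tested.

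**Figure D4:**
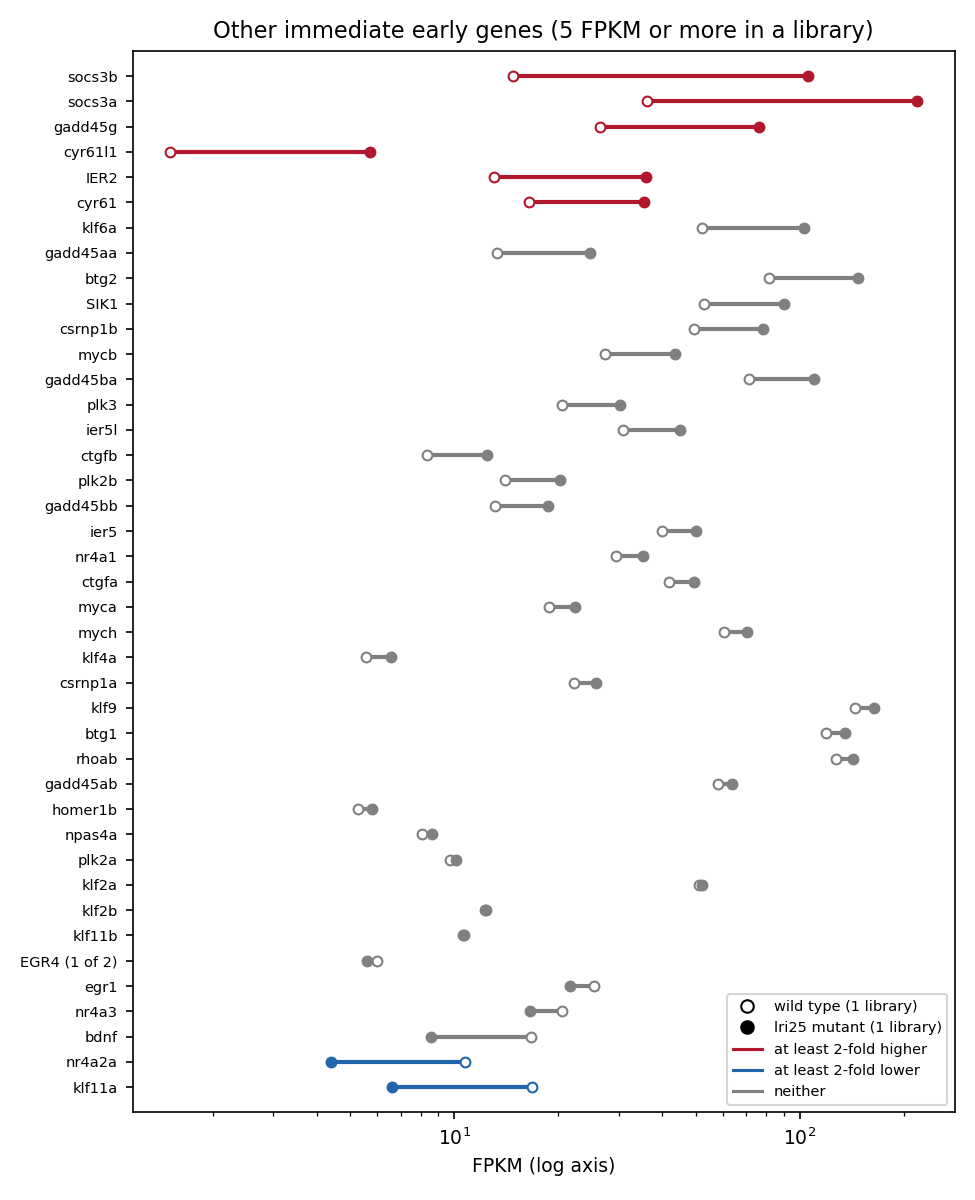
Levels in FPKM (log axis) of the 41 other immediate early gene rows with at least 5 FPKM in a library, open circles for the wild type and filled circles for the mutant, ordered by difference. The red lines at the top are the 6 rows at least 2-fold higher, led by socs3b and socs3a, and the blue lines at the bottom are nr4a2a and klf11a.

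Genes of a mixed list, called the wound and matrix list for short, were often higher in the mutant. It holds matrix proteases and cytokines, but also keratin, antioxidant, hormone and cell cycle genes. Many of them have been studied as AP-1 or ATF3 targets in mammals. Of 32 measured rows, 18 were at least 2-fold higher, against 6.08% of all measured genes, and 0 lower, against 7.12%. The median was 1.07. A floor on the mean of the libraries left 17 of 31 higher, against 5.14% of all genes under that floor. A gene can still pass that floor through 1 library alone, as lepb, il11a, lepa and il11b did from 0 FPKM in the sibling pool. The row mmp13b did so from 0.211 FPKM, and plaua, at 0 in the sibling pool, passed only the main floor, through the lri25 pool. This list was written with earlier results of these data known, so its count is not independent evidence. The gelatinase mmp9 was at 5.07 FPKM in the sibling pool and 53.1 FPKM in the lri25 pool, and the protease inhibitor timp2b, at a shared locus, at 8.43 FPKM in the sibling pool and 67.0 FPKM in the lri25 pool. The gene mdm2, best known as a p53 target, was at 25.9 FPKM in the sibling pool and 224 FPKM in the lri25 pool.

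The cytokine gene il11a and the leptin genes lepb and lepa were listed at 0 in the wild type. In the mutant they stood at 10.8, 20.4 and 10.5 FPKM. In the same list the cell cycle gene ccnd1, an AP-1 target in mammals named after its values were seen, was at 54.6 FPKM in the sibling pool and 47.8 FPKM in the lri25 pool. Binding of AP-1 to any of these genes was not measured.

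Endoplasmic reticulum and integrated stress genes, a second setting in which atf3 is induced in mammals, had differences mostly above 0. Of 16 measured rows, 12 lay above 0, against 49% of all measured genes. At least 2-fold higher was 1 row, cebpb, a share of 6.25% that is near the 6.08% of all measured genes. At least 2-fold lower were 0, against 7.12%. The list median was 0.33, which equals the upper quartile of all measured genes to 2 decimals. The higher count was 2 with a pseudocount of 0.1 and under both rescalings. The stress factor ddit3 was at 26.4 FPKM in the sibling pool and 32.5 FPKM in the lri25 pool, and the ATF4 target chac1 was at 634 FPKM in the sibling pool and 712 FPKM in the lri25 pool. Nearest to the difference of atf3, which was 0.91, were the growth inhibitor ddit4 at 0.99, with 69.6 FPKM in the sibling pool and 140 FPKM in the lri25 pool, and si:ch211-160e1.5, paired with nupr1a by its gene ID, at 0.88. The kinase gene eif2ak3 was at 0.78, trib3 at 0.69 and the chaperone hspa5 at 0.57, while ddit3 and chac1 were at 0.29 and 0.17.

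**Figure D5:**
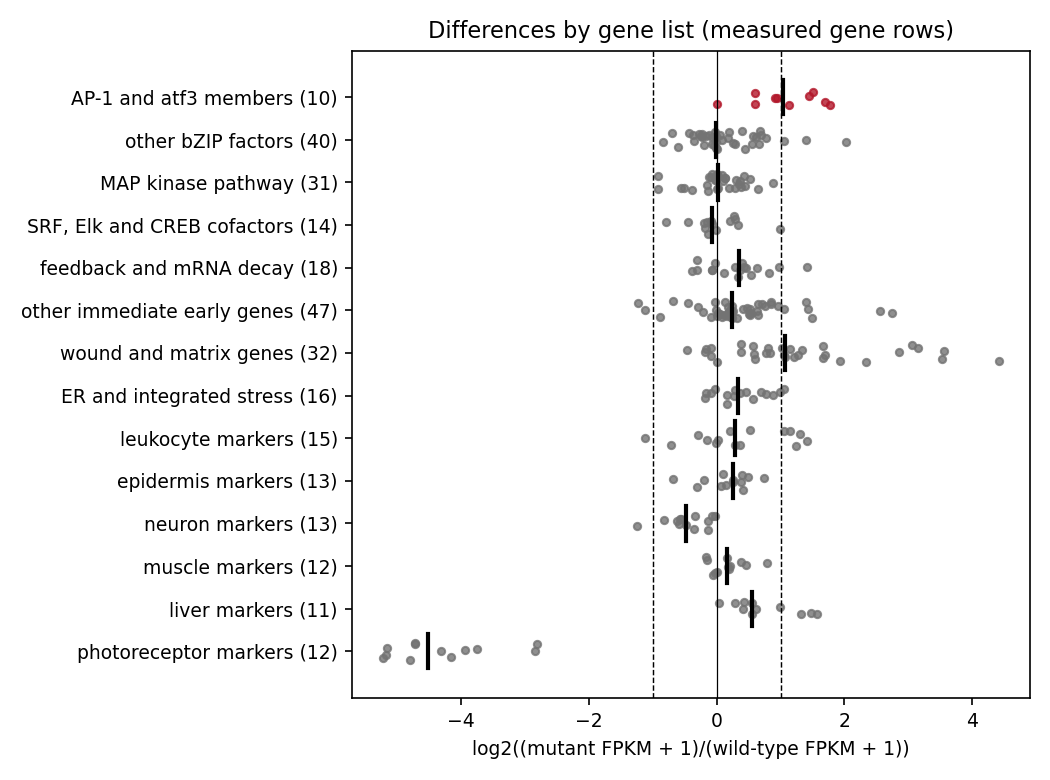
Difference on the log2(FPKM + 1) scale for each measured gene row of the AP-1 and atf3 group (red) and of the other lists (grey), with the list median as a black bar, the number of rows in brackets and dashed lines at 2-fold. The AP-1 and atf3 median of 1.04 and the wound and matrix median of 1.07 lie past the upper line, and the MAP kinase median is 0.03.

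Because whole larvae were pooled, fewer or more cells of a type and less or more RNA per cell cannot be told apart. Markers of muscle, skin, neurons and liver were found in both libraries, in keeping with the whole body label. Photoreceptor markers were far lower in the mutant, in 12 of 12 measured rows, against 7.12% of all measured genes at least 2-fold lower. Without rows at shared loci, which include both crx rows, 6 of 6 were at least 2-fold lower. The list summed to 5780 FPKM in the sibling pool and 199 FPKM in the lri25 pool. Neuron markers were lower in sum, at 1112 FPKM in the sibling pool and 791 FPKM in the lri25 pool. Of 13 measured rows, 0 lay above 0, against 49% of all measured genes, with a median of -0.48. At least 2-fold lower was 1 of the 13, against 7.12% of all measured genes, and gap43 was listed at 0 in both libraries. Epidermis markers, a tissue where AP-1 is active, summed to 16424 FPKM in the sibling pool and 18155 FPKM in the lri25 pool. Of these markers, 0 of 13 were at least 2-fold apart, against 6.08% of all measured genes higher and 7.12% lower.

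Leukocytes also express AP-1 genes when activated. Of 15 measured leukocyte marker rows, 5 were at least 2-fold higher in the mutant, against 6.08% of all measured genes. The number at least 2-fold lower was 1, against 7.12% of all measured genes. In all, 10 of the 15 lay above 0, against 49% of all measured genes, with a list median of 0.29. The list summed to 127 FPKM in the sibling pool and 143 FPKM in the lri25 pool. The higher rows included il34, at a locus shared by 12 gene rows, and spi1a. The il34 gene encodes a ligand of the macrophage receptor Csf1r, so its row, counted among the 5, does not mark leukocytes themselves. The rows il34 and spi1a were at 0.342 and 0.846 FPKM in the sibling pool and reached only 2.58 and 3.38 FPKM in the lri25 pool. The leukocyte chemotaxis gene lect2l was at 24.4 FPKM in the sibling pool and 61.6 FPKM in the lri25 pool. The macrophage receptor marco was listed at 0 in the sibling pool and at 1.21 FPKM in the lri25 pool. The neutrophil enzyme mpx was at 2.93 FPKM in the sibling pool and 7.21 FPKM in the lri25 pool. The rows il34, spi1a and marco passed the floor of 1 FPKM only through the lri25 pool. With that floor on the mean of the libraries, 4 of 14 rows were at least 2-fold higher, against 5.14% of all genes under it. The rows il34 and spi1a still passed it through the lri25 pool alone, so that floor does not remove this selection. The lysozyme gene lyz was at 60.9 FPKM in the sibling pool and 27.4 FPKM in the lri25 pool. The measured leukocyte rows below 0 were lyz, cxcr4b, spi1b, cybb and ncf1, with differences of -1.12, -0.72, -0.29, -0.15 and -0.01. Of 11 measured liver marker rows, 3 were at least 2-fold higher, against 6.08% of all measured genes. All 3 were fibrinogen genes, fgg, fga and fgb. The median of the liver list was 0.56, and 11 of 11 rows lay above 0, against 49% of all measured genes. Liver markers summed to 11857 FPKM in the sibling pool and 17041 FPKM in the lri25 pool. The part of these cell types in the AP-1 differences was not tested.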

How the data were processed

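RNA from 2 pools of whole larvae was sequenced, 1 library per genotype. Per the submitters' processing notes, build Zv9, CASAVA and Bowtie were used; the sources used here give no roles or settings for them. The authors deposited 1 table with a level per gene and library, read as FPKM from the values and the column names, since the headers give no unit. Per the file headers it also holds the authors' p-value and q-value. Its columns HKWT and HKMT were matched to the titles of the wild type and the mutant (the latter title spells the allele lir25).

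The second identifier column was used: it carries the printed symbol for 14491 rows, the first for 0. Positions are the table's, written 1-based, since 4 of 4 mitochondrial genes with a locus of their own have the RefSeq length only with starts counted from 0. With pandas 2.3.3, differences were computed with a pseudocount of 1 FPKM, a floor of 1 FPKM in at least 1 library and a 2-fold threshold. No test was run. Of 342 entries in 14 gene lists, 311 were matched, by symbol, gene ID or a RefSeq synonym.

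The members and lists were chosen with earlier results of these data known. Every member and its Fos, Jun, Jdp2 and Batf copies are named. From other lists, genes past 2-fold with at least 5 FPKM were eligible, up to the 6 highest and 4 lowest per list. Marker lists are given mainly by counts and sums. Chosen after their values were seen were also zfp36l1a, dusp1, elk3, the JNK and ATF4 genes, ddit3, ddit4, nupr1a, eif2ak3, trib3, hspa5, chac1 and gap43. The same holds for marco, il34, spi1a, spi1b, cxcr4b, cybb and ncf1. No table of promoter or protein sequences was used here, so no sequence is shown.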

Additional observations from a re-analysis of the deposited data

How the results depend on the processing

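The count of AP-1 and atf3 rows at least 2-fold higher stayed at 5, and the count lower at 0, with pseudocounts of 0.1 and 5 FPKM, after rescaling to a common median or upper quartile, with no floor, with a floor of 5 FPKM, with a floor of 1 FPKM on the mean, and with the fos rows summed. The last of these settings and the floor on the mean were chosen after seeing the data. The higher count was 9 at a 1.5-fold threshold and 2 at a 3-fold threshold. None of the 10 rows crossed the 2-fold line under another pseudocount or scaling. For atf3 the difference ranged from 0.78 to 0.95, and for jun from 1.08 to 1.16.

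Over all genes the higher count of 1232 and the lower count of 1442 moved more. Adding 0.1 FPKM in place of 1 gave 1866 and 2219, adding 5 FPKM gave 296 and 361, and a floor of 5 FPKM gave 612 and 721. At 1.5-fold they were 2800 and 3247, and at 3-fold 394 and 509. Of 208 list counts under the alternatives, 18 moved by more than 1.5 times, most of them counts under 3. With a pseudocount of 5 the wound and matrix count was 11, the leukocyte marker count was 1, and neither klf11a nor nr4a2a was at least 2-fold lower. The DUSP10 call was lost with a pseudocount of 5, under floors of 5 FPKM or on the mean, and without shared loci. With fosaa, fosl1b and fosl2l added to the Fos sum, the Jun to Fos ratio was 1.42 in the sibling pool and 1.77 in the lri25 pool. The row FOS (3 of 3) was not added. No paired analysis was possible because each genotype has 1 library, and no library was left out.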

Other observations

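The genes around the AP-1 and atf3 loci were also read, a step chosen after the values were seen. Within 100 kb of the 9 loci, 42 neighbouring genes were measured, of which 8 were at least 2-fold higher and 2 lower. Over all measured genes the shares were 6.08% higher and 7.12% lower. Beside the 5 loci whose own gene was at least 2-fold higher, 3 of 20 measured neighbours were higher and 2 lower. The higher neighbours of these loci were si:dkey-86e18.1 beside jun, and efemp2a and atl3 beside fosl1a. The remaining higher neighbours lay beside loci whose own gene was short of 2-fold. They were capn12 and ttc9b beside fosb, si:ch211-147d7.5 and tatdn3 beside atf3, and the AP-1 relative jdp2 beside fos. Around junba, junbb and fosl2, 0 of the measured neighbours were at least 2-fold higher, with median differences of 0.14, -0.12 and -0.56.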
